A study of Mus musculus with 22 samples.

Results

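Lipoprotein lipase (Lpl) and 6 genes whose products make, anchor, inhibit or follow its activity were described in mouse spinal cord after temporary occlusion of the aorta. The genes are Lpl, Lmf1, Gpihbp1, Angptl4, Vldlr, Cd36 and Plin2, 7 of the 18193 genes measured. Lpl was chosen by its measured level in caudal cord at 24 h, so that rise and the other comparisons that use those arrays are given for Lpl as a description without a test. Each gene was read from the probe set with the highest mean among those assigned to that symbol alone.

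Lpl cuts triglycerides in circulating lipoproteins and releases fatty acids. Lmf1 helps it fold in the endoplasmic reticulum, Gpihbp1 carries it to the inner face of capillaries, and Angptl4 inactivates it. Vldlr binds triglyceride-rich lipoproteins, Cd36 takes up fatty acids and oxidised lipoproteins, and Plin2 coats lipid droplets in cells that store what has been taken up. In the nervous system Lpl is known from neurons and from microglia and macrophages that take up myelin debris, and outside it from heart, skeletal muscle and fat.

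All mice were wild-type C57Bl/6 animals aged 10 to 12 weeks. They had undergone aortic cross-clamping for 7.5 min, followed by 24 h or 48 h of survival, or sham surgery without the clamp. No survival time is given for the sham arrays, and the same sham arrays serve the comparisons at 24 h and 48 h. Cord was divided at T6, and the rostral piece above it and the caudal piece below it went to separate Affymetrix Mouse430_2 arrays, with 4 rostral and 3 caudal sham arrays, 3 of each region at 24 h and 4 of each region at 48 h. The rostral array 276 carries both times in its labels and was put in no group. All signals below are log2 RMA values, so a difference of 1 is a doubling, and levels are not compared between genes. Differences come from 1 limma model over the 21 grouped arrays, errors are standard errors (SE) unless named SD, and adjusted p is the Benjamini-Hochberg value over all 18193 genes. Nothing in the labels says whether arrays sharing a group came from different mice, and the p-values thus measure only how far these samples spread.

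Several arrays stand apart. On both arrays numbered 283 the genes of body position oppose the region in the label. Hoxc10, a gene of the lumbar cord, measured 10.14 on the library labelled rostral 283 and 5.67 on the library labelled caudal 283, against 9.19 to 10.48 on the other caudal and 5.32 to 6.22 on the other rostral arrays. Hoxc5, a gene of the anterior cord, gave the opposite picture, with 6.07 on rostral 283 and 8.22 on caudal 283. These genes were picked after their values had been seen, and the labels were kept. Caudal 271 correlated least with the other arrays (median r 0.912), and the 5′ against 3′ signal of Gapdh, a sign of RNA integrity, was lowest on caudal 274 (-1.05) and caudal 280 (-0.681). Neuronal markers averaged 12.72 to 12.87 on the sham, 24 h and rostral 48 h arrays and 11.68 to 12.70 at caudal 48 h, so the cord label holds, while Chat of motor neurons lay little above the lower quartile of the arrays throughout (5.61 to 6.30). In whole cord, fewer cells of a type and less RNA per cell cannot be told apart.

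Lpl was lowest in sham cord and highest at 48 h. The caudal sham arrays measured 8.0, 8.04 and 8.15, the caudal 24 h arrays 9.76, 9.73 and 9.51, and the caudal 48 h arrays 10.44, 10.21, 10.13 and 10.39. The groups do not overlap and order as sham, 24 h and 48 h. The caudal 24 h mean was 1.60 ± 0.21 above sham, a 3.03-fold difference that is the value the gene was chosen for, and the 48 h mean lay 0.63 ± 0.20 above the 24 h mean. At 48 h caudal Lpl was 2.23 ± 0.20 above sham, 4.68-fold (adjusted p = 4.03e-06, higher in 4 of 4 arrays). This comparison shares its sham arrays with the one that chose the gene.

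Above T6 Lpl was high at 48 h and was not called at 24 h. The rostral sham arrays measured 8.25, 8.49, 8.35 and 8.40 and the rostral 24 h arrays 8.47, 8.61 and 9.38. The first 2 of the 24 h arrays lie in or just above the sham range, and the high one is the library labelled rostral 283, whose Hox genes are caudal. The library labelled caudal 283, whose Hox genes are rostral, measured 9.51, so both libraries numbered 283 lay above rostral 281 and 282. The rostral 24 h difference was 0.45 ± 0.20 (adjusted p = 1), and 0.16 without both arrays numbered 283. The caudal 24 h difference was 1.68 without them. With array 276 (Lpl 10.84) counted as rostral 24 h, the rostral 24 h difference was 0.95. This rostral difference was called in 0 of 35 alternatives. At 48 h the rostral arrays measured 10.79, 11.74, 11.20 and 10.92, all above every other grouped array of the series. Rostral Lpl had risen by 2.79 ± 0.19 against sham, 6.92-fold (adjusted p = 2.41e-08), and by 2.34 ± 0.20 against 24 h (adjusted p = 7.80e-07).

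**Figure D1:**
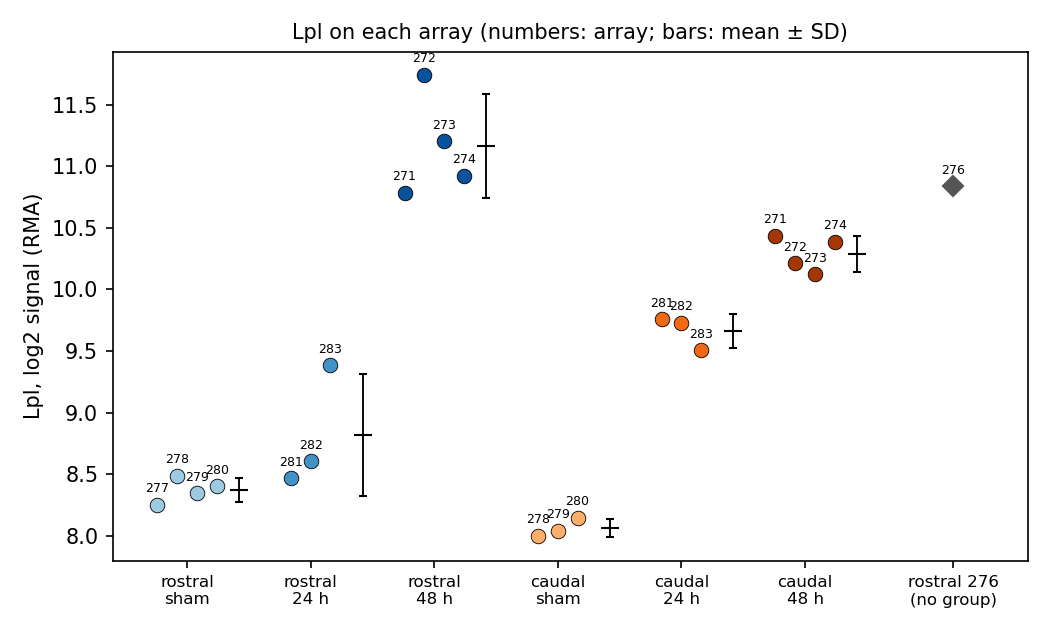
Log2 RMA signal of Lpl on each of the 22 arrays, grouped by region and time, with the array number above each point and the mean ± SD of each group beside it. Caudal arrays step up at 24 h (9.51 to 9.76) and again at 48 h (10.13 to 10.44). Rostral arrays other than 283 stay at 8.47 and 8.61 at 24 h and reach 10.79 to 11.74 at 48 h. The caudal 24 h value of 9.51 is on the library labelled caudal 283, whose Hox genes are rostral.

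In order of mean, Lpl ran from caudal sham (8.06 ± 0.08, SD, n = 3) through rostral sham (8.37 ± 0.10, SD, n = 4), rostral 24 h (8.82 ± 0.49, SD, n = 3), caudal 24 h (9.66 ± 0.14, SD, n = 3) and caudal 48 h (10.29 ± 0.15, SD, n = 4) to rostral 48 h (11.16 ± 0.42, SD, n = 4). Rostral sham and rostral 24 h overlap. The caudal sham arrays all lay below the rostral ones, with a difference of -0.31 that did not pass the test (adjusted p = 0.979). At 48 h the caudal minus rostral difference of Lpl was -0.87 ± 0.19 (adjusted p = 0.00605), a call lost when array 276 was counted as rostral 24 h (adjusted p = 0.0939) or when only the compared groups were fitted (adjusted p = 0.123). The clamp effect at 48 h differed between regions by -0.56 (95% interval -1.14 to 0.0069, adjusted p = 0.408), so a region difference in the size of the 48 h rise was not resolved. A second Lpl probe set gave 1.62 at caudal 24 h, 2.01 at caudal 48 h and 2.40 at rostral 48 h, each against sham.

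Among the other 6 genes none passed the test at 24 h in either region. Across all genes the caudal 24 h comparison called 1 gene, Lpl itself (0.00550% of genes), so nothing is read from that count. Without caudal 278, 279, 280, 281 or 282 this count fell to 0, while Lpl stayed between 1.55 and 1.68 under all 35 alternatives. The rostral 24 h comparison called 0 members and 0% of genes with limma. At an unadjusted p under 0.05 it held 142 genes, and with array weights it called 3. At 48 h, 5 of the 7 members passed in caudal cord, with Lpl, Angptl4, Cd36 and Plin2 higher and Vldlr lower, against 12.5% of all genes. In rostral cord 2 of 7 passed, Lpl and Cd36, both higher, against 0.610% of all genes. The median member difference was 1.24 at caudal 48 h and 0.48 at rostral 48 h, where the medians over all genes were 0.0043 and -0.02.

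**Figure D2:**
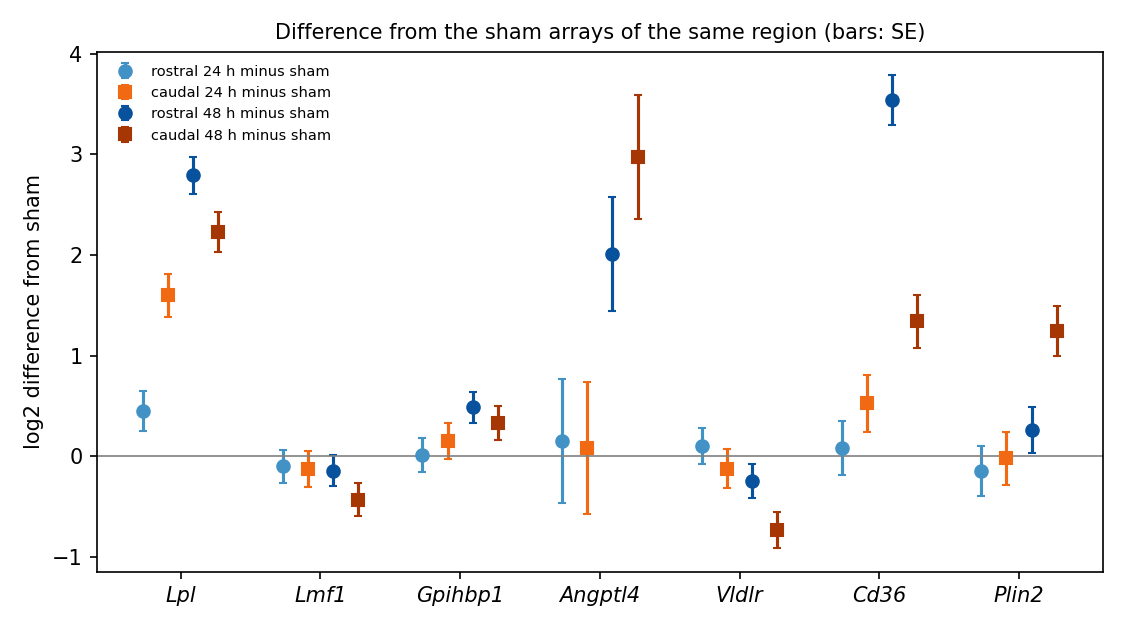
Log2 difference from the sham arrays of the same region for the 7 genes, with points for the limma estimates and bars for their SE. At 24 h caudal Lpl (1.60) is the highest point, followed by caudal Cd36 (0.52) and rostral Lpl (0.45), while at 48 h Lpl is high in both regions, Cd36 is highest in rostral cord (3.54), and Angptl4 (2.97) and Plin2 (1.24) are highest in caudal cord.

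Lmf1, the factor that lipases need to leave the endoplasmic reticulum, did not pass in any comparison with sham. Its sham arrays measured 8.29 to 8.41 above T6 and 8.26 to 8.38 below. Caudal 24 h arrays lay just under that at 8.18, 8.19 and 8.22. The caudal 48 h arrays spread from 7.36 and 7.68 on 271 and 272 to 8.18 on 273 and 8.36 on 274. The lower pair drew the mean to -0.43 ± 0.17 against sham (adjusted p = 0.0837). Without caudal 274 the difference was -0.59 (adjusted p = 0.0073) and without caudal 273 it was -0.53 (adjusted p = 0.0389), whereas without caudal 271 it was -0.25 (adjusted p = 0.196), so single arrays decide this call. The rostral 48 h difference was -0.15 ± 0.15.

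Gpihbp1, the capillary anchor of Lpl, measured 6.44 to 6.63 on the rostral and 6.27, 6.47 and 6.62 on the caudal sham arrays. Rostral 48 h arrays measured 6.73, 7.38, 7.16 and 6.81, all above rostral sham, with a difference of 0.48 ± 0.16 that missed the threshold (adjusted p = 0.273). Without caudal 271 the same difference had an adjusted p of 0.0348, and with array weights one of 0.00607. Caudal 48 h arrays measured 6.60, 6.58 and 6.62, within or at the edge of the sham range, except caudal 271 at 7.32. The caudal 48 h difference of 0.33 ± 0.17 (adjusted p = 0.175) was 0.15 without that array. Endothelial markers moved on the same caudal 48 h arrays, where 5 of 11 measured genes were lower (Tek, Slco1c1, Abcb1a, Cldn5 and Kdr, differences -0.51 to -1.53) and 0 were higher. Their part in the Gpihbp1 values was not tested.

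Angptl4, the secreted inhibitor of Lpl, was flat at 24 h and high at 48 h. Caudal sham arrays measured 7.13, 7.17 and 7.39 and caudal 24 h arrays 7.73, 7.20 and 7.0, so these groups overlap (difference 0.08 ± 0.66, adjusted p = 1). Caudal 48 h arrays measured 11.75 on 271, 11.18 on 272, 9.77 on 273 and 8.11 on 274. All are above sham, but the spread across the group is larger than for any other member (SD 1.63). The rise was 2.97 ± 0.62 against sham, 7.86-fold (adjusted p = 0.00473), and 2.89 ± 0.62 against 24 h (adjusted p = 0.00813). The second of these was lost without caudal 283 (adjusted p = 0.0631). Both were lost when only the compared groups were fitted (adjusted p = 0.185 and 0.330).

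Above T6 the 48 h arrays of Angptl4 measured 9.48, 9.79, 9.02 and 7.38 against 6.74 to 7.22 in sham. The difference of 2.01 ± 0.57 was not called (adjusted p = 0.16). It passed in 6 of 35 alternatives, among them with array weights (adjusted p = 0.000176), with only the compared groups fitted (adjusted p = 0.0442), without rostral 274 (2.52, adjusted p = 0.021), without caudal 274 (adjusted p = 0.026) and without caudal 271 (adjusted p = 0.0405). Caudal and rostral 48 h arrays overlapped, with a caudal minus rostral difference of 1.29 ± 0.57 (adjusted p = 0.152), called in 2 of 35 alternatives. The clamp effect at 48 h differed between regions by 0.97 ± 0.84 (adjusted p = 0.521). The other Angptl4 probe set averaged 3.48 over the arrays, under the lower quartile of all signals on each array (5.17 to 5.52), and differed by 0.16 ± 0.10 at caudal 48 h.

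Vldlr, which takes up lipoproteins and also serves as a receptor for reelin, was the one member called lower than sham. Caudal sham arrays measured 9.57, 9.46 and 9.67 and caudal 24 h arrays 9.45, 9.35 and 9.53. Caudal 48 h arrays measured 8.23, 8.86, 8.77 and 9.47. The first 3 lie below every sham array and caudal 274 lies within the sham range. The difference was -0.74 ± 0.18, 1.67-fold lower (adjusted p = 0.014). The call was lost without caudal 278 (adjusted p = 0.0565) or caudal 280 (adjusted p = 0.0626) and when only the compared groups were fitted (adjusted p = 0.393). Of the 5 other Vldlr probe sets, all had a lower caudal 48 h mean (differences -0.19 to -0.94), and 2 passed when every probe set was tested as its own feature. Rostral 48 h arrays measured 9.20, 9.28, 9.10 and 9.45 against 9.35 to 9.59 in sham (-0.24 ± 0.17, adjusted p = 0.990).

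Cd36, the fatty acid transporter and scavenger receptor, showed the largest measured difference from sham of the 7 genes. Its sham levels were dim, under that same quartile, at 4.33, 4.51, 4.43 and 4.53 above T6 and 4.76, 4.41 and 4.74 below. Rostral 24 h arrays stayed there at 4.34, 4.42 and 4.82. Rostral 48 h arrays measured 7.41, 8.92, 7.99 and 7.65, a rise of 11.6-fold in signal over a base too dim to give an exact ratio (3.54 ± 0.25, adjusted p = 3.75e-08, higher in 4 of 4 arrays).

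Below T6 Cd36 measured 4.97, 4.91 and 5.61 at 24 h, all above sham (0.52 ± 0.28, adjusted p = 1), with the highest value on the library labelled caudal 283. Without both arrays numbered 283 the difference was 0.30. At 48 h the caudal arrays measured 6.32, 6.10, 5.60 and 5.88, a rise of 1.34 ± 0.27, 2.53-fold (adjusted p = 0.00355). This call was lost when array 276 was counted as rostral 24 h (adjusted p = 0.0808). Every caudal 48 h array lay below every rostral one, with a difference of -2.02 ± 0.25 (adjusted p = 6.63e-05). The clamp effect at 48 h was smaller in caudal than in rostral cord, with a difference of -2.20 ± 0.36 (adjusted p = 0.00489). Cd36 was the 1 member called among differences of the 48 h effect, where 0.561% of all genes were called. That call was lost with array 276 counted as rostral 24 h (adjusted p = 0.220) and with the next brightest probe set (-2.15, adjusted p = 0.083).

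Plin2, the coat protein of lipid droplets, rose below T6 at 48 h and was not called at 24 h. Caudal sham arrays measured 9.76, 9.72 and 9.91, caudal 24 h arrays 9.91, 9.81 and 9.61, and caudal 48 h arrays 11.06, 11.72, 10.69 and 10.69. The 48 h arrays lie above all others of the region, with a rise of 1.24 ± 0.25 against sham, 2.36-fold (adjusted p = 0.00384), and of 1.26 ± 0.25 against 24 h (adjusted p = 0.00508). Without both arrays numbered 283 the second call was lost (1.18, adjusted p = 0.0686), and with only the compared groups fitted both were (adjusted p = 0.0974 and 0.226). Rostral 48 h arrays split into 10.36 and 10.74 on 271 and 272 and 9.55 and 9.54 on 273 and 274, the latter below every rostral sham array (9.73 to 9.85). Their mean difference was 0.26 ± 0.23 (adjusted p = 1). At 48 h caudal Plin2 was 0.99 ± 0.23 above rostral (adjusted p = 0.0112), a call lost without rostral 273 (adjusted p = 0.0532) and with only the compared groups fitted (adjusted p = 0.283). The clamp effect at 48 h differed between regions by 0.98 ± 0.34, which was not called (adjusted p = 0.279).

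**Figure D3:**
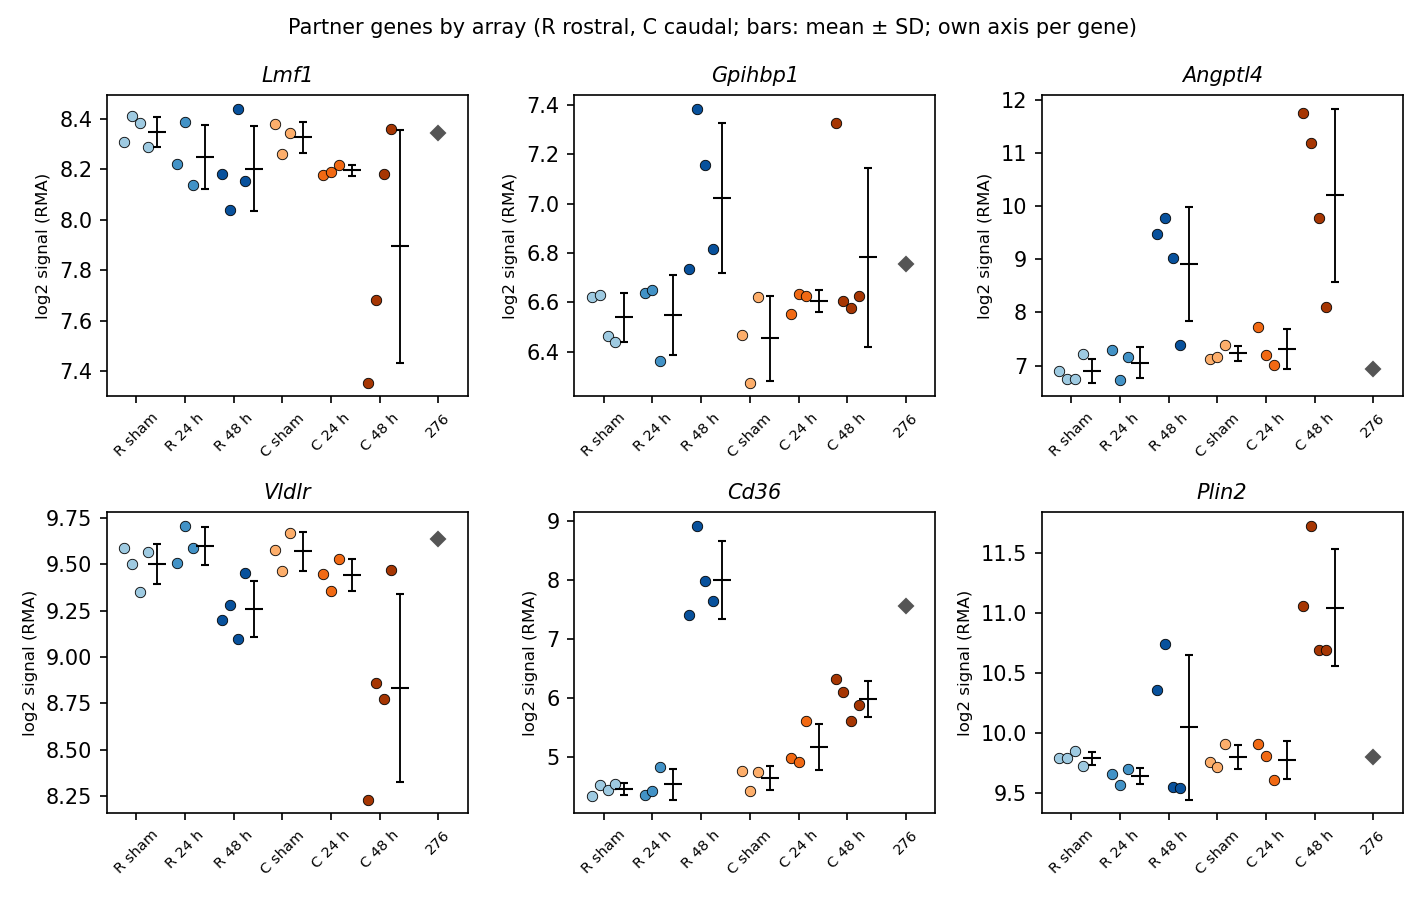
Log2 RMA signal of the 6 partner genes on each array (R, rostral; C, caudal; 276, the array in no group), each gene on its own axis, with the mean ± SD of each group beside its points. Cd36 is highest on the rostral 48 h arrays (7.41 to 8.92), and Vldlr and Lmf1 are lowest on caudal 271 (8.23 and 7.36). Angptl4 and Plin2 have their highest group mean at caudal 48 h, where the arrays overlap those of rostral 48 h.

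Sequence windows around the annotated start were taken from RefSeq (GRCm38.p6) for Plin2, Cd36, Lmf1 and Vldlr, 4 of the 7 members; Lpl, Gpihbp1 and Angptl4 had no entry. The stretches below are shown because Plin2 and Cd36 are the members with called rises whose windows hold a searched motif. AGGTCA on either strand, the half-site of PPAR and other nuclear receptors, occurred in 16.3% of 32851 windows, and ACGTG on either strand, the core of hypoxia response elements and part of E-boxes, in 19.6%. Both genes lie on the minus strand. The stretches are written 5′ to 3′ along the gene, with the motif or its reverse complement in capitals. Distances are counted from the first base in capitals.
Plin2, chr4:86670260-86670289, 218 bases before the start: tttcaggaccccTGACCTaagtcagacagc
Plin2, chr4:86670046-86670075, 3 bases before the start: cagctgggctatcACGTGgctcggaggctt
Cd36, chr5:17836107-17836136, 228 bases before the start: ctctgcactttaTGACCTgagattttcagg
In the second Plin2 stretch the motif overlaps a match on the opposite strand and reaches past the start. The windows of Lmf1 and Vldlr held neither set of letters. At these background shares a match is a description of the sequence and not a binding site.

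Comparisons of time and region place the members side by side. Between 24 h and 48 h 3 members passed in caudal cord, Angptl4 and Plin2 higher and Vldlr lower (-0.61 ± 0.18, adjusted p = 0.0486), against 6.69% of all genes. The Vldlr call is marginal: it passed in 9 of 35 alternatives and was lost without caudal 271 (-0.41, adjusted p = 0.0694). Caudal Cd36 was 0.81 ± 0.27 higher (adjusted p = 0.0714) and passed without rostral 272 (adjusted p = 0.0182), caudal 273 (adjusted p = 0.0371) or caudal 274 (adjusted p = 0.0474). In rostral cord Lpl and Cd36 passed, 2 of 7, against 0.363% of all genes, and Cd36 rose by 3.46 ± 0.27 (adjusted p = 2.55e-07). In sham cord 0 members differed between regions with limma, against 0.335% of all genes. Lpl passed there when only the compared groups were fitted (-0.31, adjusted p = 0.0388). Among all genes 1003 had an unadjusted p under 0.05.

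At 24 h the limma fit called 0 members and 0% of all genes between regions, with 57 genes at an unadjusted p under 0.05, and 0 members and 0% of genes for the difference in clamp effect, with 338 at that level. Lpl was 0.85 ± 0.21 higher in caudal than rostral cord at 24 h, and 1.21 higher without both arrays numbered 283. With array 276 counted as rostral 24 h it was 0.34 higher. At 48 h 3 members differed between regions, Plin2 higher and Lpl and Cd36 lower in caudal cord, against 9.71% of all genes.

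Marker genes of other tissues and cells moved with some of these values. Heart muscle genes were high on the rostral 48 h arrays. Of 14 such genes, 11 passed above rostral sham, and the list's median difference was 4.21 against -0.02 over all genes. Myh6, the heavy chain of atrial and ventricular myosin, measured 9.47 to 10.82 on these arrays and 4.23 to 4.40 on rostral sham. The mean of the list was 9.07, 10.30, 10.30 and 9.82 on rostral 271 to 274, 8.03, 7.35, 6.67 and 7.27 on caudal 271 to 274, and 6.03 to 6.33 on every sham and 24 h array. Thus the list mean was raised on all 8 of the 48 h arrays, with more of it above T6. At caudal 48 h 5 of the 14 genes passed above sham and 1 below, with a median difference of 1.05. Ryr2, the brightest of them, had a lower mean there (8.62 against 9.28). Lpl was highest on the 48 h arrays. So was Cd36, except that caudal 273 (5.598) lay just under caudal 283 at 24 h (5.610). Skeletal muscle genes stood out on rostral 273, where their list averaged 8.97, against 5.98 to 6.25 on the other rostral 48 h arrays. Of 10 such genes 1, the muscle creatine kinase Ckm, passed in that group (2.60 ± 0.43, adjusted p = 0.00388), and the median difference was 0.84. Lpl and Cd36 are both abundant in muscle. Gpihbp1 and the heart muscle list had a Pearson r of 0.785 over the 21 grouped arrays, and Gpihbp1 and the endothelial list one of -0.521. Both coefficients mix differences between groups with those inside them. The part of the muscle signals in the 48 h values of Lpl, Cd36 and Gpihbp1 was not tested.

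At caudal 24 h the heart muscle list stayed near its sham level. On caudal 281, 282 and 283 its mean was 6.13, 6.14 and 6.22, against 6.03, 6.12 and 6.14 on the caudal sham arrays, and Myh6 and Myl7 lay below the lower quartile. Of the striated muscle genes named below as most like Lpl, Mb was 0.91 ± 0.62 above caudal sham, with all arrays above, and Ttn 0.72 ± 0.60. Myl2 was at 0.35, Actc1 at 0.08 and Tnni3 at -0.15, and none of these genes passed. The mean of the disease-associated microglia list, genes raised in phagocytic microglia such as Gpnmb, Clec7a and Itgax, was 9.16 on caudal 281, 9.03 on 282 and 8.68 on 283, against 8.55 to 8.64 in caudal sham. None of its 10 measured genes passed at 24 h with limma (all-gene count at p under 0.05, 528), and their median difference was 0.37. The brightest genes of this list did not move together at caudal 24 h. Apoe measured 13.41 to 13.57, below every caudal sham array (13.60 to 13.76). Cd9 overlapped sham, with means of 11.77 and 11.83, and Tyrobp lay above it (9.61 to 10.04 against 9.30 to 9.39). The library labelled caudal 283 also carried fat and skeletal muscle signal. Its adipocyte list averaged 7.37 and Adipoq measured 7.70, against 6.32 to 6.50 and 4.18 to 4.62 on the other caudal sham and 24 h arrays. Its skeletal muscle list averaged 7.06, against 5.89 and 6.09 on the other caudal 24 h arrays and 5.738 to 5.995 in caudal sham. The median difference of the skeletal muscle list at caudal 24 h was 0.46, and 0 of its 10 genes passed. The part of these signals in the caudal 24 h values was not tested.

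At caudal 48 h monocyte and macrophage markers were high. Of 13 measured genes, 8 passed above sham and 0 below, with a median difference of 1.81. Cd14, the lipopolysaccharide co-receptor, rose by 4.54 ± 0.49 (adjusted p = 2.25e-05) and the lysosomal glycoprotein Cd68 by 2.47 ± 0.35 (adjusted p = 0.000174). Lyz2, the brightest gene of the list, overlapped caudal sham at 48 h (9.83 to 12.49 against 9.58 to 10.18). At rostral 48 h it lay below every rostral sham array (8.88 to 9.27 against 9.49 to 9.74). The list mean was 9.62, 8.82, 8.41 and 7.94 on caudal 271 to 274, which is the order of Angptl4 on the same arrays (11.75, 11.18, 9.77 and 8.11). The ends of this order, caudal 271 and 274, are among the arrays that stand apart. In rostral cord the list was highest on 271 and 272 (7.55 and 7.49, others 6.96 and 6.86), the arrays with the highest rostral Angptl4 and Plin2. Vldlr was lowest on caudal 271, where the list was highest. Neural markers were lower on the same caudal 48 h arrays, with 2 of 8 neuronal, 3 of 7 motor neuron and 3 of 6 oligodendrocyte precursor genes lower than sham and 0 higher. Their list means were lowest on caudal 271 (11.68, 7.12 and 8.36), the array with the lowest Vldlr and Lmf1. Other lists followed Angptl4 and Plin2 in caudal cord too. Over the 10 caudal arrays Angptl4 had a Pearson r of 0.973 with the monocyte and macrophage list. It was 0.92 with the disease-associated microglia list and 0.881 with the heart muscle list. For Plin2 the monocyte and macrophage list gave 0.893 and heart muscle 0.866. Over the 8 arrays at 48 h these lists gave 0.834 and -0.337 for Angptl4 and 0.824 and -0.656 for Plin2. The microglia list gave 0.722 and 0.858 there. The part of all these marker shifts in the values of Angptl4, Plin2, Vldlr and Lmf1 was not tested. Of the disease-associated microglia list 7 of 10 passed above caudal sham at 48 h and 1, Apoe, below. At rostral 48 h, where Lpl was highest, 0 of 10 passed and their median difference was 0.07. Lpl and this list had a Pearson r of 0.854 over the 10 caudal arrays and of -0.79 over the 8 arrays at 48 h. For Lpl and the heart muscle list these were 0.715 and 0.929. All coefficients of this paragraph mix differences between groups with those inside them.

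Clone, RIKEN and predicted names were left out when genes were named by likeness to Lpl. Across the 21 grouped arrays the gene most like Lpl was Cd36 (Pearson r = 0.918, first of 18192). The next 5 were Mb (r = 0.879), Myl2 (r = 0.871), Ttn (r = 0.866), Actc1 (r = 0.865) and Tnni3 (r = 0.860), which encode myoglobin and proteins of the contractile apparatus of striated muscle. Gpihbp1 reached 0.716, Angptl4 0.673 and Plin2 0.471, while Vldlr (-0.533) and Lmf1 (-0.416) ran opposite. The points fall into groups by time and region, so these coefficients mix differences between groups with those inside them. As deviations from the group means, Cd36 followed Lpl at 0.705, and Aqp1, a water channel, at 0.759 was the first other gene that could be named, behind 1 gene with such a name. Without both arrays numbered 283 the Cd36 value was 0.920 over 19 arrays and that of Gpihbp1 0.713. The leading named genes other than members were then Asb11 (0.858), Ephx2 (0.832), Cyp3a25 (0.828), Corin (0.815) and Cyp2e1 (0.811), with 1 gene left out by its name between Asb11 and Ephx2.

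Over the 10 caudal arrays alone the order changed. Gpnmb, a glycoprotein of phagocytic microglia and macrophages, was most like Lpl (r = 0.935), followed, after 1 gene left out by its name, by the heat shock gene Hspa1a (0.918), Skap2 (0.915), the lysosomal marker Cd68 (0.910) and the microglial gene Fcrls (0.907). Cd36 had an r of 0.846 there. Gpnmb measured 0.60 ± 0.19 above caudal sham at 24 h and 1.20 ± 0.18 above it at 48 h. It was named for its likeness to Lpl on these same arrays, so a similar course follows from that choice. Its differences are thus given as a description without a test. As deviations from the caudal group means, Cd36 had an r of -0.0145. The caudal points share sham and clamp groups, and array 283 is among them.

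Other genes of the pathway came from 5 lists of lipolysis regulators, lipoprotein receptors, fatty acid uptake, lipid droplet turnover and PPAR with fatty acid oxidation, in which 79 of 92 genes were measured. With limma 0 of 79 passed at 24 h in either region. The largest value among those named there was that of Fabp4, a fatty acid carrier of fat cells and capillaries, at 1.68 ± 1.04 in caudal cord (adjusted p = 1). Its list of fatty acid uptake genes averaged 10.18 on caudal 283, the array with the fat markers, against 9.82 and 9.87 on caudal 281 and 282. Mgll, a monoglyceride lipase, measured -0.44 ± 0.15 (adjusted p = 1).

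At caudal 48 h 4 of the 79 genes were higher and 8 lower, together 15.2% and thus near the 12.5% called among all genes, with a median of -0.08 against 0.0043 over all genes. Of 11 lipoprotein receptor genes the scavenger receptors Msr1 (1.81 ± 0.46, adjusted p = 0.0174) and Olr1 (1.79 ± 0.23, adjusted p = 9.21e-05) rose, and the sorting receptor Sort1 fell by 0.80 (adjusted p = 0.0397). Of 17 fatty acid uptake genes the transporters Slc27a2 (-0.63) and Slc27a4 (-0.58) and the caveolar coat gene Cav1 (-0.56) fell, and 0 rose. Of 17 droplet genes Plin4, another droplet coat protein, rose by 2.85 ± 0.63 (adjusted p = 0.00709) and Mgll fell by 0.43. Of 18 genes of PPAR and oxidation Pdk4, a kinase that limits glucose oxidation, rose by 1.61 ± 0.39 (adjusted p = 0.0121), while the coactivator Ppargc1a (-1.13) and Ppara (-0.40) fell. Of 16 lipolysis genes 1, Apoe, the main apolipoprotein of the nervous system, fell by 0.38 (adjusted p = 0.0151).

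At rostral 48 h 5 of the 79 genes were higher and 0 lower, together 6.33% against 0.610% of all genes, with a median of 0.02 against -0.02. These were the fatty acid carriers Fabp4 (4.17 ± 0.90, adjusted p = 0.0367) and Fabp3 (0.98 ± 0.16, adjusted p = 0.00306), the droplet proteins Plin4 (3.38 ± 0.58, adjusted p = 0.00549) and Plin5 (0.94 ± 0.20, adjusted p = 0.0336), and Pdk4 (1.84 ± 0.36, adjusted p = 0.0165). Fabp3, Plin5 and Pdk4 are known from heart and skeletal muscle, and the heart muscle list was high on the same 4 arrays. Plin4 and Pdk4 passed in both regions at 48 h.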

How the data were processed

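Total RNA was hybridised to 22 single-colour arrays. The authors deposited log2 signals. Per the submitters' processing notes these come from RMA, with its version not given in the sources used here. They were used unchanged. Of 45101 probe sets, the platform annotation gave 34945 a single symbol, 932 several symbols and 9160 none. The brightest single-symbol probe set per gene gave 18193 genes. RMA equalises the distribution of signals between arrays, so a shift shared by most genes cannot be seen (array medians 6.79 to 6.88), and background compresses differences of dim genes. Arrays have no read depth; their number, 3 or 4 a group, limits the precision.

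Groups followed the labels. The rostral array 276 was left out because its labels give both 24 h and 48 h. Array numbers run in blocks by group, so effects tied to them cannot be told apart from treatment. Group means over 21 arrays were estimated in limma 3.58.1 (lmFit, eBayes; R 4.3.3, statmod 1.5.0; 18.7 degrees of freedom with the prior), with two-sided tests and Benjamini-Hochberg adjustment within each contrast, called under 0.05. The code was tested on simulated data.

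The members and lists were chosen with earlier results of these data known. Named were all members, up to 4 called genes with the smallest p per pathway list and comparison with sham (the smallest 2 where none passed, not all of which are printed), and the 5 genes most like Lpl; Hox and single marker genes were picked after their values were seen. Alternatives were the mean of probe sets, every probe set, brighter genes only, median centring, repeated quantile normalisation, trend with robust eBayes, array weights, compared groups only, a replicate block, array 276 as 24 h or 48 h, and arrays left out.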

Additional observations from a re-analysis of the deposited data

Results flagged for a closer look

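On the array caudal 271 Gpihbp1 measured 7.325, far from the other 3 caudal 48 h arrays, with a gap of 0.936 of the group's range, past Dixon's limit for 4 samples. Chance alone marks about 1 in 20 groups this way. The 7 members were each checked in every group of 4 arrays, and no other value was marked. The 48 h clamp effect on Cd36 differed between regions by -2.20 on the log2 scale in the limma fit, lower in caudal cord. The rostral array 276, which no comparison uses, lay above every rostral sham array for Lpl (10.84), Cd36 (7.552), Gpihbp1 (6.756) and Vldlr (9.634). Its heart muscle list averaged 10.03, within the range of the rostral 48 h arrays, and its Angptl4 (6.94) and Plin2 (9.81) were within the sham range.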

How the results depend on the processing

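Over 70 values of members, each under up to 35 alternatives (2410 values in all), 2327 kept direction and side of the threshold or moved within the spread, 45 lost the call, 36 gained it, 0 reversed and 2 values of Lpl without a test moved (0.39 for caudal 48 h against 24 h with the second probe set, 0.34 for 24 h caudal against rostral with array 276 as 24 h). Uncalled values changed sign 34 times. Lpl against sham stayed called in all 35 alternatives at 48 h, at 2.00 to 2.30 in caudal and 2.40 to 2.92 in rostral cord. Centring moved the median of all genes by under 0.1.

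Counts moved more. Genes called at caudal 24 h (1) were 293 with array weights, 2 without both arrays numbered 283, 0 with 276 as 24 h, 0 without caudal 271, 274 and 280, and 0 to 1 with 1 array left out. At caudal 48 h (2282) they were 3503 with every probe set, 1516 among brighter genes, 6245 with array weights, 142 in the compared groups only, 4661 without caudal 271, 274 and 280, and 805 to 5736 with 1 array left out; members called (5) were 2 in the compared groups only. At rostral 24 h (0) array weights called 3. At rostral 48 h (111) they were 35 among brighter genes, 1850 with weights, 453 in the compared groups only, 64 with 276 as 48 h, 887 without caudal 271, 274 and 280, and 58 to 420 with 1 array left out. Members called there (2) were 5 with weights, 4 without those 3 arrays and 2 to 4 with 1 array left out. The cause was not tested. The brightness filter kept 5 of 7 members.

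The numbers share no stated animal or batch: 6 of 10 same-numbered pairs correlated over 0.1 in their deviations and 7 of 10 arrays matched their own number best. With the number as a replicate block (correlation 0.138), caudal 48 h called 2383 genes and 5 members and rostral 48 h 113 genes and 2 members, and Lpl was 2.23 and 2.79.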
